A study of Mus musculus with 46 samples.

Results

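The nuclear genes that encode the subunits of the mitochondrial respiratory chain were followed in the left ventricle of mice after myocardial infarction. The members were the probe sets whose only gene symbol in the platform's table starts with Nduf, Uqcr, Cox4, Cox5, Cox6, Cox7, Cox8 or Atp5, or is Sdha, Sdhb, Sdhc, Sdhd or Cyc1. The rule found 157 of 20380 probe sets with 1 symbol, which represent 85 of 12393 genes. It goes by symbol and used no measured value, but it was set with earlier results of these data known. By complex, 33 genes belong to complex I (NADH dehydrogenase), 4 to complex II (succinate dehydrogenase), 9 to complex III (cytochrome bc1), 17 to complex IV (cytochrome c oxidase, with Ndufa4 counted here) and 17 to complex V (ATP synthase). The other 5, Ndufaf1, Ndufaf3, Ndufaf4, Ndufaf5 and Ndufaf7, share the prefix but encode complex I assembly factors, which are not subunits, and are described apart.

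Complexes I and II pass electrons from NADH and succinate to ubiquinone, complex III passes them on to cytochrome c, and complex IV gives them to oxygen. Complexes I, III and IV pump protons across the inner mitochondrial membrane, and complex V uses the gradient to make ATP. The adult heart depends on this pathway for nearly all of its ATP, and some small subunits of complex IV exist as a pair of genes, a form of heart and skeletal muscle and a form found in most tissues.

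The mice were males of 15 to 20 weeks of the strains C57BL/6J (C57) and MRL/MpJ (MRL). They were studied on day 0 without an operation, or on day 1 or day 5 after the left coronary artery was tied. On each day an infarct piece, which includes the border, and a noninfarct piece with the rest of the left ventricle were cut apart with a biopsy punch and frozen. At day 0 the piece called infarct is the matching anterior-apical part of a healthy ventricle, so no sham-operated heart stands beside the ligated ones. Each of the 12 groups of strain, day and region had 4 Affymetrix MOE430A arrays, and the C57 day 0 groups had 3, which made 46 arrays. Titles number the arrays as biological replicates, but the labels do not tie the pieces of a heart to each other. Values are log2 intensities, changes are differences of group means with the standard error (SE) of the fit, and calls are those with an adjusted p under 0.05 in limma.

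A probe set was tested when it lay above the median of its array on at least 3 arrays of the fit. In infarct tissue 141 member probe sets passed, for 81 of the 85 genes, and the same numbers passed in noninfarct tissue. Each gene is represented by its passing probe set with the highest mean. The 4 genes that did not pass were Cox4i2, Cox6b2, Cox7c and Cox8c, whose probe sets lay below the array median on all arrays. Cox4i2 and Cox6b2 are forms of subunits with a restricted tissue range, and Cox8c is a testis form. Cox7c is a subunit of complex IV in all tissues, and its highest value on any array in both of its probe sets was 3.98, against array medians of 4.22 to 4.48, so these probe sets give no measure of it.

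Some libraries stood apart from their groups. The median change of the 81 genes from the day 0 mean was -0.61, -1.85, -1.45 and -1.71 in C57 infarct replicates 1 to 4 on day 5, and -1.61, -1.91, -0.24 and -1.59 in MRL. In C57 noninfarct tissue on day 5 it was -0.06, -0.42, -1.40 and -0.50. C57 noninfarct replicate 3 thus lay near the infarct arrays and MRL infarct replicate 3 near the noninfarct arrays. The labels of both arrays were kept as given, and whether they were exchanged was not tested. C57 infarct replicate 1 lay between them. Counts that move by more than 1.5 times without the first pair of arrays are given both ways, and C57 infarct replicate 1 was added to them after seeing the data. All of these arrays stood apart on the members themselves, so larger member counts without them are no independent support.

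The median of 12 cardiomyocyte markers moved with these values. On day 5 it changed by -0.31, -1.23, -0.96 and -1.37 in the C57 infarct arrays, by -1.08, -1.80, -0.05 and -1.27 in the MRL infarct arrays and by -0.05, -0.13, -1.01 and -0.21 in C57 noninfarct tissue. In infarct tissue on day 5, 9 of the 12 markers fell in C57 and 10 in MRL. Of 11 macrophage markers 10 rose in each strain, with array medians of 2.74 to 3.49 in C57 and 2.08 to 3.93 in MRL, and all 8 fibroblast markers rose. Neutrophil markers had array medians of 7.27 to 7.85 in C57 and 5.66 to 6.77 in MRL on day 1. The log2 ratio of the 3' to the 5' Gapdh control probe set, a sign of RNA integrity, was highest in C57 day 5 infarct replicate 2, at 0.73. In these whole tissue pieces fewer cardiomyocytes and less RNA per cardiomyocyte cannot be told apart.

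**Figure D1:**
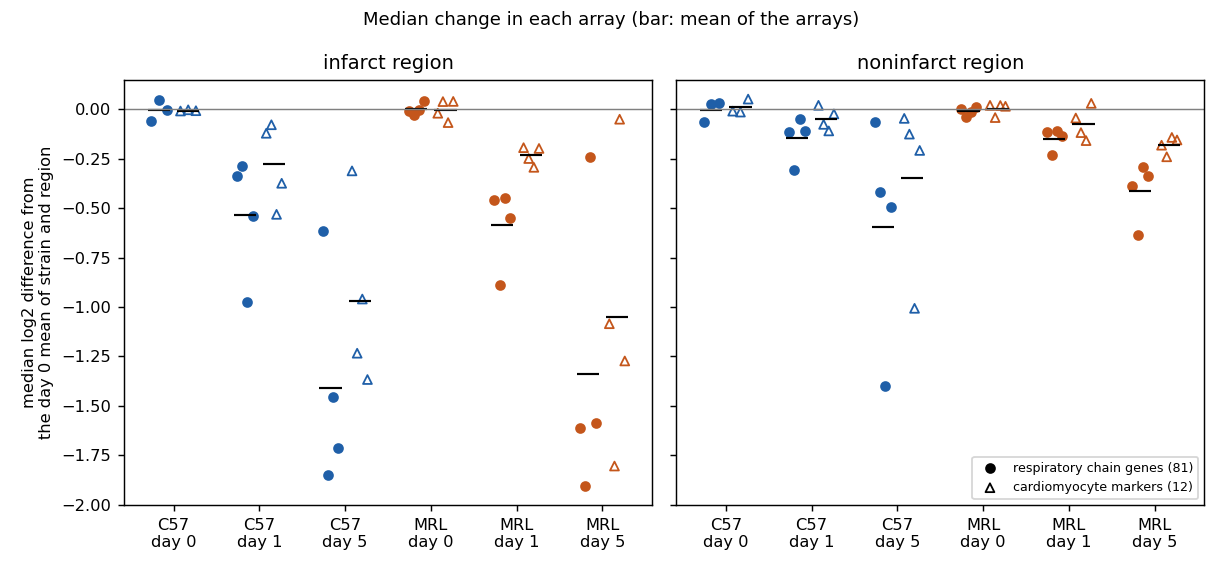
Median log2 difference from the day 0 mean of the same strain and region over the 81 respiratory chain genes (circles) and over 12 cardiomyocyte markers (triangles), 1 symbol per array, with bars at the mean of the arrays. On day 5 the circle of MRL infarct replicate 3 sits at -0.24 and that of C57 noninfarct replicate 3 at -1.40, away from the others of their groups, and the triangles of those arrays do the same.

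Infarct tissue on day 5 held less respiratory chain RNA than at day 0 in every complex. Of the 81 genes 77 fell and 1 rose in C57, and 79 fell and 1 rose in MRL, while over all 7608 genes tested 19.6% fell and 24.4% rose in C57 and 24.1% fell and 24.4% rose in MRL. The median change was -1.41 in C57 and -1.38 in MRL, against 0.03 and -0.03 over all genes. The 77 genes that fell in C57 all fell in MRL too, where 79 of the 81 fell, and the overlap over all genes is not given. The arrays of day 0 and day 5 did not overlap for 75 lower genes in C57 and 64 in MRL, where all genes gave 27.5% and 25.9%. Without the pair of arrays the counts were 78 lower and 1 higher in C57 and 79 lower and 1 higher in MRL, and the MRL median was -1.75. Leaving out C57 infarct replicate 1 as well took the C57 median to -1.70.

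**Figure D2:**
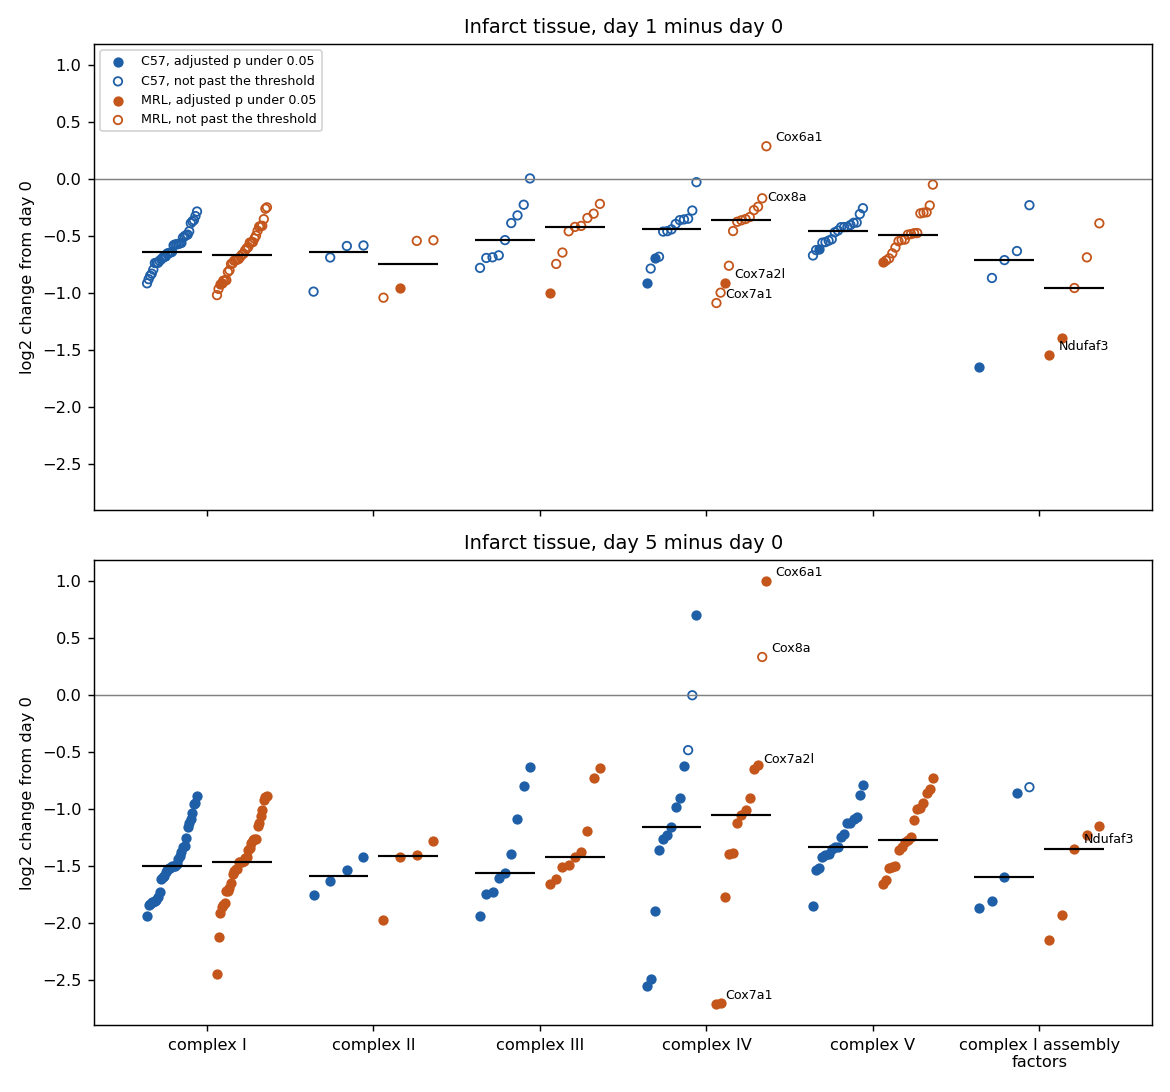
Log2 change in infarct tissue from day 0 to day 1 (upper panel) and to day 5 (lower panel), 1 symbol per gene, by complex and strain. Filled symbols passed an adjusted p of 0.05 in limma, open ones did not, and black bars are medians. On day 5 all but a few symbols of complex IV lie below 0, with Cox6a1 at 0.71 in C57 and 1.00 in MRL.

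Complex I is the largest complex, and all 33 of its genes fell in both strains, with medians of -1.5 in C57 and -1.46 in MRL. Ndufs1, the largest iron-sulfur subunit of the electron path, had the largest fall. It measured 12.47, 12.23 and 12.64 in the C57 infarct region at day 0 and 11.86, 9.70, 10.22 and 10.24 on day 5. The MRL values were 12.62, 12.69, 12.73 and 12.70 at day 0 and 9.32, 9.57, 12.03 and 10.04 on day 5. All day 5 arrays lay below all day 0 arrays in each strain, by a narrow margin in C57 replicate 1 and MRL replicate 3. The change was -1.94 ± 0.50 in C57 (adjusted p = 0.0041) and -2.45 ± 0.46 in MRL (adjusted p = 0.0003), or 3.85-fold and 5.46-fold lower.

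Ndufs4, an accessory subunit needed for a stable complex, fell by 1.84 in C57 and 2.13 in MRL. Ndufa6, another accessory subunit, fell by 1.82 and 1.86. Ndufv1, which carries the flavin that accepts electrons from NADH, fell by 1.80 ± 0.41 and 1.85 ± 0.38 (adjusted p = 0.0017 and 0.00056). The smallest falls of the complex were those of Ndufa3 in C57, -0.89 ± 0.29, and of Ndufb7 in MRL, with the same size of -0.89.

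All 4 genes of complex II fell, with medians of -1.59 in C57 and -1.42 in MRL. Sdha, the flavoprotein that oxidizes succinate, was at 12.64, 12.52 and 12.56 in C57 at day 0 and at 11.92, 10.43, 10.51 and 10.41 on day 5. In MRL it was at 12.38, 12.41, 12.38 and 12.30 at day 0 and at 9.83, 9.69, 12.10 and 9.95 on day 5. The same pair of arrays that stood apart for Ndufs1 stood apart here, and the groups still did not overlap. Sdha fell by 1.76 ± 0.45 (adjusted p = 0.0039) and 1.98 ± 0.41 (adjusted p = 0.00071), Sdhb, the iron-sulfur subunit, by 1.43 and 1.41, and the membrane anchor Sdhc by 1.64 and 1.43.

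All 9 genes of complex III fell, with medians of -1.56 in C57 and -1.42 in MRL. Uqcrq, a small subunit at the ubiquinone site, fell by 1.94 ± 0.43 in C57 and 1.49 ± 0.40 in MRL (adjusted p = 0.0014 and 0.0044). Its other passing probe set, with a mean near the array median at 4.31, changed by -0.41 and -0.28 and was not called. Uqcr11 fell by 1.73 and 1.66, and the core subunit Uqcrc1 by 1.75 and 1.62. The electron carriers of the complex fell by like amounts: Uqcrfs1, the Rieske iron-sulfur protein, by 1.61 and 1.51, and Cyc1, cytochrome c1, by 1.56 and 1.38. Uqcrb had the smallest fall of the complex in each strain, 0.64 ± 0.22 and 0.64 ± 0.20 (adjusted p = 0.023 and 0.012). The dimmer probe sets of Uqcr10 changed by -2.08 and -2.02 in C57 and by 0.81 and -0.46 in MRL, where only its brightest probe set was called (-1.19 ± 0.30, adjusted p = 0.0029).

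All 17 genes of complex V fell, with medians of -1.34 in C57 and -1.27 in MRL. Atp5b, the catalytic beta subunit, fell by 1.22 ± 0.33 and 1.25 ± 0.30 (adjusted p = 0.0052 and 0.0021), and Atp5a1, the alpha subunit, by 1.41 and 1.27. Atp5g1, which encodes the ring subunit c together with Atp5g2 and Atp5g3, had the largest fall over both strains, by 1.85 ± 0.42 in C57 and 1.62 ± 0.38 in MRL (adjusted p = 0.0016 and 0.0019). Atp5e, the epsilon subunit, fell by 1.52 and 1.50, and Atp5k, a membrane subunit of the dimer, by 1.40 and 1.66.

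The 5 assembly factors fell in MRL, and 4 of them in C57, with medians of -1.60 in C57 and -1.35 in MRL. Ndufaf1, an early assembly factor of complex I, fell by 1.81 ± 0.45 and 2.15 ± 0.42, and Ndufaf4 by 1.87 ± 0.41 and 1.93 ± 0.38. Ndufaf5 changed by -0.81 ± 0.40 in C57 (adjusted p = 0.10), which passed when that pair of arrays was left out (adjusted p = 0.03), and fell by 1.16 ± 0.37 in MRL (adjusted p = 0.014).

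Complex IV was the mixed complex. Of its 13 measured genes 10 fell and 1 rose in C57, and 11 fell and 1 rose in MRL, with medians of -1.16 and -1.05. Its largest falls and its rise belonged to genes that come as muscle and ubiquitous forms of the same subunit. Cox4i1, a regulatory subunit that binds ATP, fell by 1.23 ± 0.30 and 1.01 ± 0.28, and Cox5a by 0.98 ± 0.27 and 1.05 ± 0.25. Ndufa4, once counted with complex I, fell by 1.16 ± 0.34 and 1.39 ± 0.31. Cox6b1, which lies between the monomers, fell by 0.62 ± 0.24 and 0.61 ± 0.22 (adjusted p = 0.039 and 0.027), and the call was lost in C57 with quantile normalization (adjusted p = 0.083).

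Cox7a1, the muscle form of subunit VIIa, measured 13.03, 12.82 and 13.32 in C57 at day 0 and 12.23, 9.39, 10.34 and 10.03 on day 5. The MRL values were 13.07, 12.88, 13.04 and 13.15 at day 0 and 9.35, 9.14, 12.40 and 10.38 on day 5. The groups did not overlap, although C57 replicate 1 and MRL replicate 3 lay close to day 0. It fell 5.89-fold in C57 (-2.56 ± 0.60, adjusted p = 0.0022) and 6.57-fold in MRL (-2.72 ± 0.56, adjusted p = 0.00059). Without MRL replicate 3 the change in that strain was -3.41.

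Cox8b, the muscle form of subunit VIII, measured 13.00, 13.42 and 13.02 in C57 at day 0 and 12.38, 9.50, 10.51 and 10.21 on day 5. In MRL it measured 13.08, 13.24, 12.93 and 13.03, then 9.87, 8.88, 12.47 and 10.24. The pattern over arrays was that of Cox7a1, and it fell by 2.49 ± 0.60 (adjusted p = 0.0028) and 2.70 ± 0.56 (adjusted p = 0.00065). Cox6a2, the muscle form of subunit VIa, measured 13.14, 13.00 and 13.03 in C57 at day 0 and 12.50, 10.62, 10.94 and 10.58 on day 5. In MRL it measured 12.72, 12.99, 12.78 and 12.95, then 10.64, 9.99, 12.85 and 10.87, so that replicate 3 had not left the range of day 0. It fell by 1.89 ± 0.47 (adjusted p = 0.0031) and 1.77 ± 0.43 (adjusted p = 0.0023).

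Cox6a1, the form of subunit VIa in most tissues, was the gene that rose. It measured 11.48, 11.84 and 11.72 in C57 at day 0 and 12, 12.56, 12.57 and 12.41 on day 5. In MRL it measured 11.49, 11.09, 11.29 and 11.19 at day 0 and 12.37, 12.19, 12.15 and 12.35 on day 5. All day 5 arrays lay above all day 0 arrays, MRL replicate 3 included. The rise was 0.71 ± 0.16 in C57 (adjusted p = 0.0019) and 1.00 ± 0.15 in MRL (adjusted p = 3.3e-05). Its other probe set changed by 0.35 ± 0.16 in C57 (adjusted p = 0.076) and rose by 0.66 ± 0.15 in MRL (adjusted p = 0.0011).

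Cox8a, the form of subunit VIII in most tissues, was at 9.54, 9.77 and 9.62 in C57 at day 0 and at 9.77, 9.55, 9.58 and 9.67 on day 5. In MRL it was at 9.59, 9.58, 9.45 and 9.52, then at 9.76, 9.91, 9.94 and 9.88, which lay above day 0 without a call (0.33 ± 0.19, adjusted p = 0.15). Its other passing probe set changed by 0.23 ± 0.21 and 0.41 ± 0.19. Cox7a2, the ubiquitous form of subunit VIIa, fell less than Cox7a1, by 0.90 ± 0.25 and 0.90 ± 0.23 (adjusted p = 0.0071 and 0.0034). Cox7a2l, a related gene whose product binds complexes III and IV into supercomplexes, changed by -0.48 ± 0.24 in C57 (adjusted p = 0.11) and fell by 0.65 ± 0.22 in MRL (adjusted p = 0.023), and only 1 of its other 2 probe sets was called there.

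**Figure D3:**
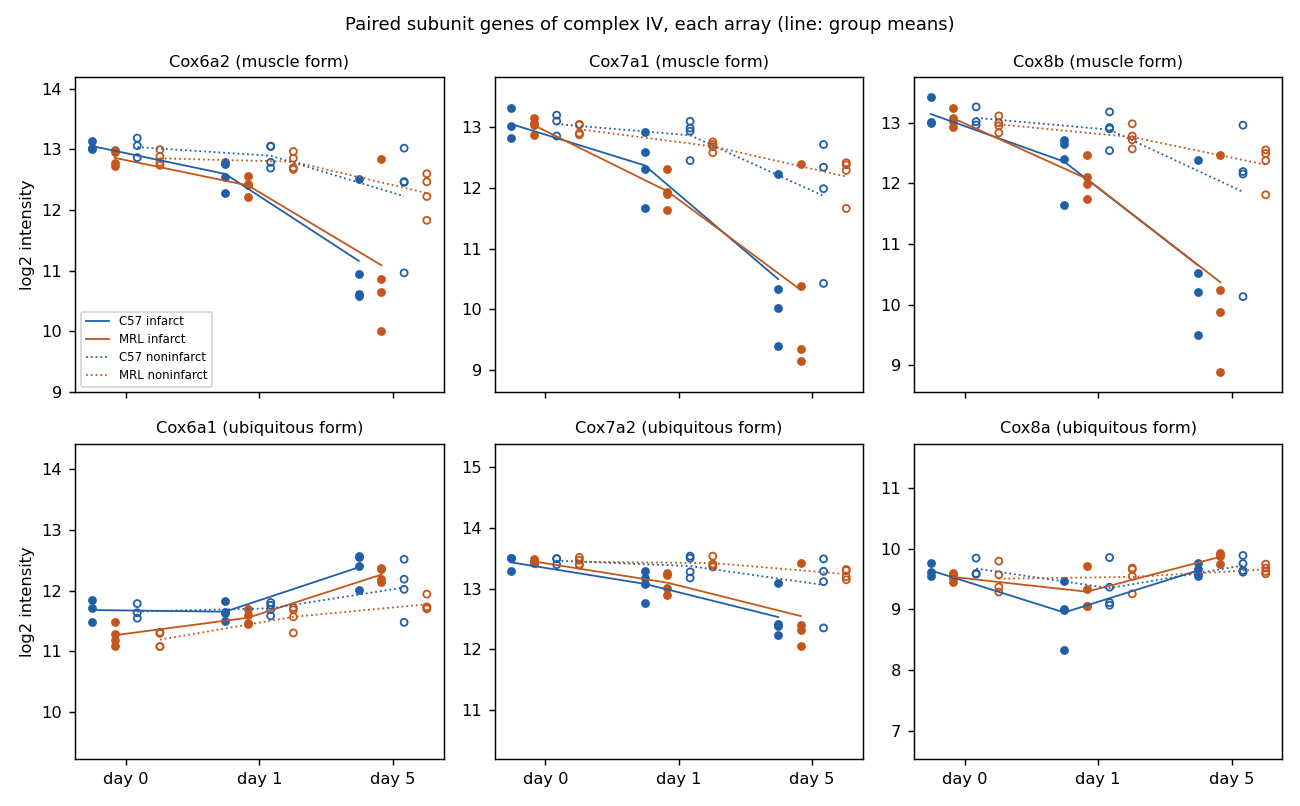
Log2 intensity of the muscle (upper row) and ubiquitous (lower row) gene of 3 subunits of complex IV on days 0, 1 and 5, 1 symbol per array, filled for infarct and open for noninfarct tissue, with lines through the group means. All panels span the same number of log2 units. The muscle forms fall to group means between 10.32 and 11.16 in infarct tissue on day 5, while Cox6a1 rises to 12.38 in C57 and 12.26 in MRL.

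The change of each muscle form was set against that of its partner on the same array, as the log2 difference of the pair. The difference cancels what both genes share on an array. It does not cancel a change in the mix of cells, since the partner is found in most tissues and the muscle form is not. The part of the cell mix in the change of the pairs was not tested on either day or in either region. The levels of a pair are not comparable, only the change of their difference. The change was averaged over the strains and tested with an exact permutation test, two-sided, that exchanged arrays between days within a strain, with 2450 arrangements and a smallest possible p of 0.00041. In all 20 tests were made, on 5 pairs, 2 days and 2 regions, and p-values were adjusted over them. The pairs were chosen with earlier results of these data known, values of Cox7a1 among them.

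The Cox6a2 minus Cox6a1 difference was 1.66, 1.16 and 1.31 in C57 infarct tissue at day 0 and 0.50, -1.94, -1.63 and -1.83 on day 5. In MRL it was 1.23, 1.90, 1.49 and 1.76, then -1.73, -2.19, 0.70 and -1.49. All 8 day 5 arrays lay below all day 0 arrays of their strain, and the mean change was -2.69 (exact permutation test, adjusted p = 0.0054). The Cox8b minus Cox8a difference changed by -2.76 (exact permutation test, adjusted p = 0.0054), and Cox7a1 minus Cox7a2 by -1.74 (exact permutation test, adjusted p = 0.0054). The 3 pairs thus shifted away from the muscle form by 6.44-fold, 6.79-fold and 3.33-fold. Leaving out MRL infarct replicate 3 and C57 infarct replicate 1 gave -3.29, -3.37 and -2.13.

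The ring subunit c of complex V is encoded by 3 genes whose mature protein is the same. Atp5g1 fell more than Atp5g3 in infarct tissue on day 5, by a difference of -0.93 (exact permutation test, adjusted p = 0.0061), and more than Atp5g2, by -0.73 (exact permutation test, adjusted p = 0.014). In MRL alone the Atp5g1 and Atp5g2 pair did not pass (exact permutation test, adjusted p = 0.18).

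The bases before the start sites of both forms were looked up for letters known as motifs of regulators of mitochondrial and muscle genes. Promoter windows of 250 bases before to 50 after a gene's start were taken from RefSeq (GRCm38.p6), which held 75 windows for 70 of the 85 genes. The searched letters were GCGCA and GCGC with any base between them (nuclear respiratory factor 1, NRF1), CCGGAAG (ETS factors, GABPA among them), AAGGTCA (core of the estrogen-related receptor element) and CAGCTG (an E-box), on both strands. The NRF1 letters can match both strands at 1 place, and CAGCTG reads the same on both. The 250 bases before the start are shown for members whose RNA fell most and for members that rose or held, with matches in capitals:

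Cox7a1, chr7:30183921-30184170, plus strand: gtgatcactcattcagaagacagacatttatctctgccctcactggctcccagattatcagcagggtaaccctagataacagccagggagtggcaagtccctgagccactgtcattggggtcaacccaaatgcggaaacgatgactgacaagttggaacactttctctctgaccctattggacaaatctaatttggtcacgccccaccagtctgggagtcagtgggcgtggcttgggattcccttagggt

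Cox8b, chr7:140900447-140900696, minus strand: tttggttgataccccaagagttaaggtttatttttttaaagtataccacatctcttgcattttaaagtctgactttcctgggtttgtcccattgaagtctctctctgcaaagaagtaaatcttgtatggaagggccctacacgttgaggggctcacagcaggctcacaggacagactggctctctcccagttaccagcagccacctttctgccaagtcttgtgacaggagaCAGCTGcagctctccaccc

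Cox6a1, chr5:115348959-115349208, minus strand: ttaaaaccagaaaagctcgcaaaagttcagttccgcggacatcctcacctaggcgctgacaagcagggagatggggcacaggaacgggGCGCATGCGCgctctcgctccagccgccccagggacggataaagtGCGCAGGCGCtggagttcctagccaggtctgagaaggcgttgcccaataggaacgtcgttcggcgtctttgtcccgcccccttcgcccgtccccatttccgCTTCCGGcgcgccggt

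Cox8a, chr19:7217617-7217866, minus strand: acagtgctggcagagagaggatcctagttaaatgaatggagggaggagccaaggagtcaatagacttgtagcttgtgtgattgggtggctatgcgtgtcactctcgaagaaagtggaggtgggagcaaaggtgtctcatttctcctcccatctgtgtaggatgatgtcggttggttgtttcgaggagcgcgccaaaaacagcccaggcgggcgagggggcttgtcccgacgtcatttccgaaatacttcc

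The Cox6a1 window held GCGCATGCGC, GCGCAGGCGC and CTTCCGG, which is CCGGAAG on the other strand. The Cox8b window held CAGCTG, again within the 50 bases after the start, and the Cox7a1 window none of the 4. In Cox8a a CTTCCGG began 5 bases before the start and ran past the stretch shown, and another lay after the start. Over all member windows the NRF1 motif was present in 22.7%, against 4.6% of the 32851 windows in the table, CCGGAAG in 24% against 8.86%, AAGGTCA in 9.33% against 4.72% and CAGCTG in 8% against 16.3%. The windows in the table were not matched to the members in expression or base content, and no test was made. Whether these shares are particular to the members is thus not known. Genes that fell hold these letters as well: Sdha and Ndufa6 hold the NRF1 motif. A match describes the letters of a window and shows no binding.

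On day 1 the infarct region had changed less, and few changes were called. All day 1 arrays lay below all day 0 arrays for 59 of the 81 genes in C57 and 62 in MRL, against 16.7% and 18.7% of all genes. In C57 4 of the 81 genes fell and none rose, and in MRL 8 fell and none rose, which is 4.94% and 9.88% of the members. Over all genes 7.07% fell and 9.48% rose in C57, and 12.4% fell and 10.1% rose in MRL, so with all arrays in the fit the called shares are no larger among the members. The medians were -0.56 in each strain, against -0.01 and -0.03 over all genes, and 80 of 81 changes were below 0 in each strain, where all genes had 50.4% and 51.9%. The counts depended on the arrays used to estimate the spread: without MRL day 5 replicate 3 as a source of spread 13 fell in C57 and 34 in MRL, and without C57 day 5 replicate 1 as well 39 and 48, with the same changes. In these fits 16% and 42% of the members fell, against 10.7% and 16.5% of all genes, and then 48.1% and 59.3%, against 12.6% and 18.3%. The arrays left out stood apart on the median of the members themselves, so these larger shares are no independent support. Leaving out 1 array of the comparison itself gave 1 to 5 calls in C57 and 3 to 10 in MRL, fewest without C57 day 0 replicate 2 and MRL day 1 replicate 2.

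The genes called in both strains on day 1 were Ndufaf3, Cox7a2l and Atp5g2. Ndufaf3, an assembly factor that joins early parts of complex I, measured 7.66, 7.99 and 7.52 in C57 at day 0, then 5.67, 6.69, 5.58 and 6.33 on day 1 and 6.82, 5.62, 6.11 and 5.96 on day 5. In MRL it measured 7.97, 7.56, 7.68 and 7.62 at day 0, then 7.06, 5.28, 6.69 and 5.62 on day 1 and 6.26, 5.80, 7.18 and 6.19 on day 5. It was thus low on day 1 and no lower on day 5. On day 1 the change was -1.65 ± 0.39 in C57 (adjusted p = 0.0069), and MRL had -1.55 ± 0.36 (adjusted p = 0.0054).

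Cox7a2l measured 10.46, 10.78 and 10.51 in C57 at day 0, then 10.07, 10.05, 8.97 and 9.60 on day 1 and 10.27, 10.39, 10 and 9.74 on day 5. In MRL it measured 10.55, 10.75, 10.52 and 10.47, then 9.93, 9.44, 9.63 and 9.64, and then 9.89, 9.58, 10.43 and 9.81. The day 1 arrays lay below day 0 in each strain. The fall was 0.91 ± 0.24 (adjusted p = 0.014) and 0.91 ± 0.22 (adjusted p = 0.0076), and its other 2 probe sets fell in each strain too, by 0.79 to 1.03. Atp5g2 fell by 0.62 ± 0.20 (adjusted p = 0.037) and 0.73 ± 0.18 (adjusted p = 0.0082), though C57 missed the threshold with the replicate number as a block (adjusted p = 0.068).

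Cox8a was called on day 1 in C57, where it measured 8.34, 9.01, 8.99 and 9.46 and fell by 0.69 ± 0.20 (adjusted p = 0.024). In MRL it changed by -0.24 ± 0.19, and the difference of the strains' changes, 0.45 ± 0.28, was not called (limma, adjusted p = 1). Its other probe set was not called on day 1 in C57 (adjusted p = 0.13). The other genes called in MRL were Ndufa3 (-0.92 ± 0.27), Ndufs8 (-0.91 ± 0.32), Sdhd (-0.95 ± 0.33), Uqcr10 (-1.0 ± 0.30) and Ndufaf1 (-1.39 ± 0.42), and in C57 these changed by -0.39, -0.92, -0.99, -0.78 and -0.87.

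From day 1 to day 5 in infarct tissue 47 genes fell and 2 rose in C57, and 34 fell and 2 rose in MRL, against 14.8% and 13% of all genes that fell. Without MRL day 5 replicate 3 70 fell and 2 rose in MRL, against 19.8% of all genes, and without C57 day 5 replicate 1 as well 76 fell in each strain, against 20.3% and 20.9%. Leaving out 1 array gave counts from 10, without C57 day 5 replicate 2, to 72, without C57 day 5 replicate 1, and from 8, without MRL day 5 replicate 2, to 72, without MRL day 5 replicate 3. In each strain 77 of 81 genes were lower on day 5 than on day 1, and the same 4 were not: Cox6a1, Cox8a, Cox7a2l and Ndufaf3. The genes that rose were Cox6a1, by 0.73 ± 0.15 and 0.71 ± 0.15 (adjusted p = 0.001 and 0.0017), and Cox8a, by 0.69 ± 0.19 and 0.58 ± 0.19 (adjusted p = 0.0086 and 0.027). Over all genes 20.5% rose in C57 and 17.8% in MRL. Among the genes that fell, Atp5j2, Ndufc1, Sdhc and Ndufa2 had the smallest adjusted p in C57, with changes of -0.82 to -1.25, and Ndufa5, Ndufaf4, Atp5pb and Cox6c in MRL, with changes of -0.94 to -1.54. Cox7a2l changed by 0.43 and 0.26 and Ndufaf3 by 0.06 and 0.20, without a call.

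On day 1 some of the pairs, of complex IV and of subunit c, had begun to part. In infarct tissue the Cox6a2 minus Cox6a1 difference changed by -0.59 (exact permutation test, adjusted p = 0.0064), Cox7a1 minus Cox7a2 by -0.53 (exact permutation test, adjusted p = 0.0061) and Atp5g1 minus Atp5g3 by -0.38 (exact permutation test, adjusted p = 0.0054). Cox8b minus Cox8a changed by -0.42 and did not pass (exact permutation test, adjusted p = 0.16), with -0.09 in C57 and -0.75 in MRL. Atp5g1 minus Atp5g2 changed by -0.02 (exact permutation test, adjusted p = 0.80). In noninfarct tissue Cox6a2 minus Cox6a1 changed by -0.31 on day 1 (exact permutation test, adjusted p = 0.0089). The other 4 pairs changed by -0.18 to -0.06 there and did not pass (exact permutation tests, adjusted p = 0.075 to 0.73).

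In noninfarct tissue no gene was called by its brightest probe set on day 1 in either strain with limma, where 4.07% of all genes were called in C57 and 1.04% in MRL. At an unadjusted p under 0.05 there were 2 genes in each strain, and of the other probe sets 1 of Ndufs4 was called in C57 (-1.42 ± 0.39, adjusted p = 0.046). The medians were -0.13 and -0.14. Without C57 day 5 replicate 3 as a source of spread Ndufaf3 fell in both strains, by 0.58 and 0.65 (adjusted p = 0.049 and 0.04), and Cox7a2l in C57, by 0.45 (adjusted p = 0.024), against 3.17% and 0.754% of all genes lower. Both genes fell on day 1 in infarct tissue too. On day 5 40 genes fell in C57, against 9.85% of all genes, with a median of -0.60, and 14 fell in MRL, against 8.39%, with a median of -0.43. Both counts rested on single arrays. Without C57 day 5 replicate 3, 6 fell in C57, against 3.43% of all genes, with a median of -0.34, and 62 fell in MRL, against 15.5% of all genes. Leaving out other arrays gave from 1 call, without C57 day 0 replicate 2, to 77, without C57 day 5 replicate 1, and in MRL from 0, without day 5 replicate 2, to 10, without day 5 replicate 3.

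The 11 genes that fell in noninfarct tissue of both strains on day 5 were Ndufa1, Ndufa2, Ndufa6, Ndufab1, Ndufb2, Ndufb11, Ndufs1, Ndufs3, Ndufaf3, Uqcrc1 and Atp5g2. They were 27.5% of the C57 list and 78.6% of the MRL list, and the overlap over all genes is not given. Ndufab1, the mitochondrial acyl carrier protein and a subunit of complex I, fell by 0.69 ± 0.16 (adjusted p = 0.0063) and 0.48 ± 0.15 (adjusted p = 0.021). Ndufs3, of the core of complex I, fell by 0.65 ± 0.18 in C57 but missed the threshold there without day 5 replicate 3. Ndufs1 fell by 1.17 ± 0.34 (limma, adjusted p = 0.021) and 0.87 ± 0.31 (limma, adjusted p = 0.047). The list of 11 rested on the same single arrays as the counts. Without C57 day 5 replicate 3, 6 members fell in C57. The largest member change was then -0.70, that of Cox7a1, so Ndufs1 changed less than with all arrays. Without MRL day 5 replicate 2 no member was called in MRL, Cox6a1 included. Cox6a1 rose in MRL, by 0.58 ± 0.16 (adjusted p = 0.013), where 16.4% of all genes rose, and changed by 0.40 ± 0.17 in C57 (adjusted p = 0.10). In MRL its values were 11.31, 11.08, 11.08 and 11.29 at day 0 and 11.70, 11.94, 11.73 and 11.73 on day 5, without overlap.

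The pairs of complex IV parted in noninfarct tissue too. On day 5 the difference changed by -1.18 for Cox6a2 minus Cox6a1 (exact permutation test, adjusted p = 0.0095), by -0.68 for Cox7a1 minus Cox7a2 (exact permutation test, adjusted p = 0.0054) and by -1.05 for Cox8b minus Cox8a (exact permutation test, adjusted p = 0.0089). With C57 day 5 replicate 3 left out the values were -0.89, -0.56 and -0.73, and each still passed (exact permutation tests, adjusted p = 0.0072, 0.0036 and 0.0036). Over the 15 settings that left out 1 array, Cox8b minus Cox8a missed the threshold in 1 (exact permutation test, adjusted p = 0.05). The other pairs of complex IV passed in all of them. Atp5g1 minus Atp5g3 changed by -0.27 (exact permutation test, adjusted p = 0.0054), and Atp5g1 minus Atp5g2 by -0.07 (exact permutation test, adjusted p = 0.73). The cardiomyocyte markers had a median change of -0.35 in C57 noninfarct tissue on day 5, with 1 of 12 called, and of -0.18 in MRL, with none called, while 10 of 11 macrophage and 7 of 8 fibroblast markers rose in each strain. Their part in the change of the pairs was not tested.

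The regions were compared within a strain on each day. At day 0 no member differed between them in either strain with limma, also at an unadjusted p under 0.05, where 0% and 0.0515% of all genes were called in C57 and MRL. On day 1 Ndufaf3 was lower in C57 infarct than noninfarct tissue, by 0.98 ± 0.30 (adjusted p = 0.038), against 3.45% of all genes lower. In MRL 5 genes were lower, against 5.13%: Cox7a2l (-0.74 ± 0.19), Ndufa3 (-0.85 ± 0.24), Atp5g2 (-0.52 ± 0.16), Ndufaf3 (-0.94 ± 0.30) and Uqcr10 (-0.82 ± 0.27). Without the pair of arrays named at the start 10 genes were lower in C57 and 26 in MRL, against 8.38% and 10.4% of all genes, and leaving out 1 array of the comparison gave 0 to 4 and 0 to 6.

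On day 5 24 genes were lower in C57 infarct than noninfarct tissue and none higher, against 3.78% of all genes lower and 5.57% higher, with a median difference of -0.74. In MRL 64 were lower, against 10.3%, and Cox6a1 was higher, by 0.49 ± 0.15 (adjusted p = 0.025), against 5.34% of all genes higher, with a median of -0.92. Of the 24 genes of C57 23 were among the 64 of MRL, and the overlap over all genes is not given. Without the pair of arrays 78 were lower and 1 higher in C57, against 15.5% of all genes lower and 18.7% higher, with a median of -1.03. Leaving out 1 array gave from 0 calls, without C57 noninfarct replicate 1 or 2 or infarct replicate 2 or 4, to 78, without C57 noninfarct replicate 3, and from 1, without MRL infarct replicate 2, to 80, without MRL infarct replicate 3. In C57 Sdhc had the smallest adjusted p, at a difference of -1.0 ± 0.25 (adjusted p = 0.019), followed by Atp5h, Ndufb11, Cyc1 and Ndufv3 at differences of -0.68 to -1.10. In MRL Uqcrc2, a core subunit of complex III, came first with -1.21 ± 0.26 (adjusted p = 0.0043), followed by Ndufv2, Ndufab1, Atp5h and Ndufaf1 at -0.78 to -1.59.

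At day 0 no gene was called by its brightest probe set between MRL and C57 in the infarct or the noninfarct region with limma, where 1.16% and 1.86% of all genes were called, and the median difference was -0.05 and -0.04. At an unadjusted p under 0.05 there was 1 gene in each region, and it was Cox6a1 in both, lower in MRL by 0.42 ± 0.16 (adjusted p = 0.48) and 0.46 ± 0.17 (adjusted p = 0.30). Without C57 day 5 noninfarct replicate 3 Ndufa13 was lower in MRL noninfarct tissue, by 0.52 (limma, adjusted p = 0.039). That is 1.23% of the members, no more than the 1.48% of all genes that were lower in this fit. Uqcr10 was lower in MRL by 2.19 and 2.12 at day 0 when the median over its probe sets was used (adjusted p = 0.032 and 0.011), and its dimmest passing probe set differed by -4.87 ± 0.68 and -4.97 ± 0.63, MRL minus C57 (limma, adjusted p = 0.00027 and 8.7e-05). Its brightest probe set differed by -0.05 and -0.06, and whether its dimmer probe sets bind RNA of both strains alike was not tested.

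The difference between the strains' changes was called for no member on day 1 or day 5 in either region with limma, and none had an unadjusted p under 0.05. Over all genes 0.0263% and 0.171% were called in infarct tissue on day 1 and day 5, and 0.0137% in noninfarct tissue on each day. The largest strain difference of a member's change on day 5 in infarct tissue was that of Ndufs1, at -0.50 ± 0.68, MRL minus C57, or -1.10 ± 0.51 without MRL infarct replicate 3 (limma, adjusted p = 0.71). Without C57 infarct replicate 1 as well it was that of Ndufaf5, at -0.70 ± 0.43 (limma, adjusted p = 0.98). The median difference was 0.03, or -0.34 without MRL infarct replicate 3 and -0.04 without C57 infarct replicate 1 as well. Across the 81 genes the changes of the strains had a Pearson correlation of 0.93 on day 5 and 0.75 on day 1 in infarct tissue, as a description over genes that share their arrays.

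Genes that work beside the respiratory chain were counted in the same fits of infarct tissue on day 5, where 19.6% of all genes fell in C57 and 24.1% in MRL. The lists were chosen with earlier results of these data known. All 12 measured citric acid cycle genes fell in both strains, with medians of -1.60 and -1.61, close to the medians of the subunits. Of 12 genes of electron carriers, carriers of nucleotides and outer membrane channels 9 fell in C57 and 10 in MRL. Cycs, cytochrome c itself, fell by 1.50 ± 0.38 and 1.40 ± 0.35 (adjusted p = 0.0037 and 0.0028), and Etfdh, which feeds electrons of fatty acid oxidation into ubiquinone, by 2.31 ± 0.54 and 2.78 ± 0.50. Slc25a4, the heart and muscle form of the ADP/ATP carrier, fell by 1.11 ± 0.30 and 1.09 ± 0.28, whereas Slc25a5, another form, changed by -0.49 ± 0.23 and -0.32 ± 0.21 without a call. Atpif1, the inhibitor of ATP synthase, was not called either, at -0.09 ± 0.24 and 0.47 ± 0.22.

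Of 10 measured regulators of mitochondrial genes 9 fell in C57 and 10 in MRL, with medians of -1.69 and -1.55. Ppargc1a, the coactivator PGC-1 alpha, fell, with changes of -3.48 ± 1.15 (adjusted p = 0.019) and -3.89 ± 1.06 (adjusted p = 0.0052). Esrra, the estrogen-related receptor alpha, fell by 1.69 ± 0.35 and 1.2 ± 0.33, and Tfam, which binds mitochondrial DNA, by 1.22 ± 0.28 and 1.24 ± 0.25. Gabpa changed by -0.64 ± 0.26 in C57 (adjusted p = 0.053) and fell by 1.06 ± 0.24 in MRL (adjusted p = 0.0014).

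Assembly factors whose symbols lie outside the rule were followed over both days. Of 22 measured 4 fell in C57 and 10 in MRL on day 1, beside the 7.07% and 12.4% of all genes that fell, with medians of -0.63 and -0.86. On day 5 13 fell in each strain, beside 19.6% and 24.1% of all genes, with medians of -0.65 and -0.73. With all arrays their medians on both days were thus near each other. Single arrays had medians of -0.66, -0.43, -0.65 and -0.57 in C57 and -0.44, -1.04, -0.68 and -0.93 in MRL on day 1. On day 5 these were -0.46, -1.10, -0.62 and -0.75 in C57 and -0.90, -1.02, -0.35 and -0.93 in MRL. The highest were those of C57 replicate 1 and MRL replicate 3, which stood apart. The median of the respiratory chain genes went from -0.56 to -1.41 in C57 and from -0.56 to -1.38 in MRL. The difference between these courses was not tested.

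**Figure D4:**
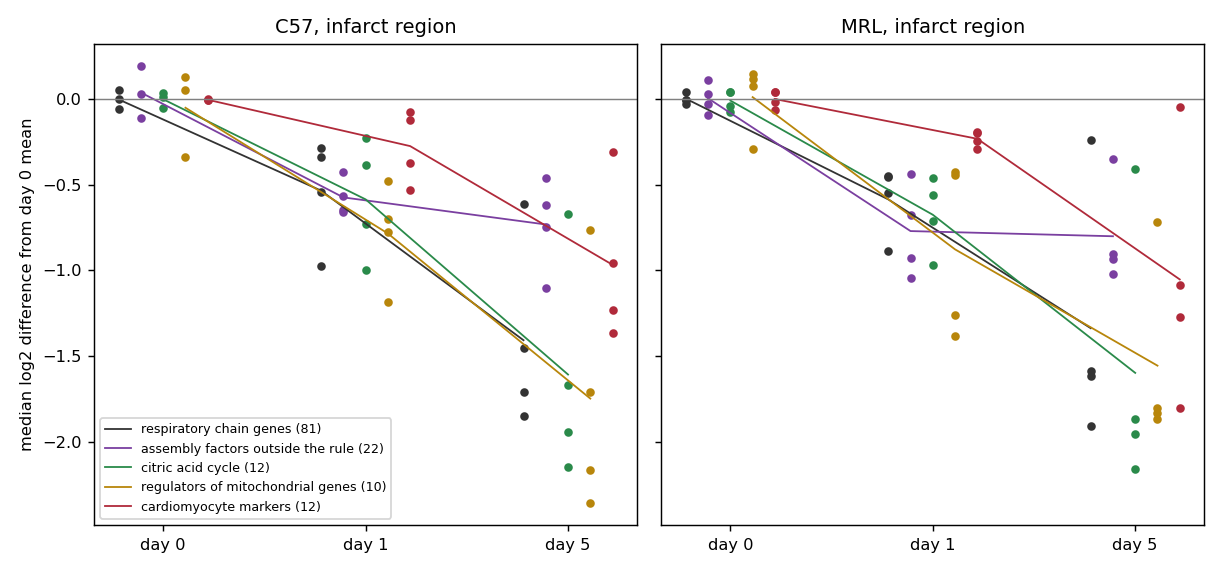
Median log2 difference from the day 0 mean in infarct tissue for the 81 respiratory chain genes, 22 assembly factors outside the rule, 12 citric acid cycle genes, 10 regulators of mitochondrial genes and 12 cardiomyocyte markers, 1 symbol per array, with lines through the group means. The MRL array nearest to 0 on day 5 is replicate 3, at -0.24 for the respiratory chain genes.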

How the data were processed

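RNA of infarct and noninfarct left ventricle was measured on 46 arrays in 12 groups. The deposited values are linear intensity per probe set, made with GCRMA per the submitters' processing notes (no version is named). Log2 was taken with no offset. Affymetrix control probe sets (64 of 22690) were left out, and those with several symbols (691) or none (1555) were tested but not named. Promoter windows were matched by Entrez ID. Days and strains were compared in 1 fit per region of 23 arrays and regions in a fit of all 46, with limma 3.58.1 (lmFit and eBayes, two-sided) in R 4.3.3, and Benjamini-Hochberg adjustment ran over 12834, 12344 or 13138 probe sets. Of the 22 comparisons those of a strain and region share day 0 arrays. P-values measure the spread between these arrays, and their number limits precision. The fit was tested on simulated data. Python 3.11.15 ran the motif search.

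The members, pairs and lists were chosen with earlier results of these data known. Named genes are, per complex, the 3 largest falls and any rise in infarct tissue on day 5, core subunits, all paralogs, members not called, up to 5 with the smallest adjusted p in other comparisons, and those whose probe sets disagreed. Uqcrb, Ndufb7, Ndufs8, Sdhd, Ndufa13, the genes shared by lists and the genes of other lists were named after their values were seen. Alternatives were no filter, quantile normalization, median centring, an offset of 32, the median over a gene's probe sets, all 46 arrays in 1 fit, a replicate block, each strain alone for the pairs, and leaving out arrays.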

Additional observations from a re-analysis of the deposited data

Results flagged for a closer look

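Of 180 sets of 4 arrays checked, 10 (5.56%) had 1 array far from the other 3, where chance alone gives about 1 in 20. Sdha lay at 11.92 in C57 day 5 infarct replicate 1, with the others at 10.41 to 10.51, and at 12.10 in MRL day 5 infarct replicate 3, with the others at 9.69 to 9.95. The Cox6a2 minus Cox6a1 difference was 0.50 in C57 day 5 infarct replicate 1, with the others at -1.94 to -1.63. In MRL day 5 noninfarct replicate 2 Cox7a1 was at 11.66, below the others at 12.29 to 12.42, and Cox6a1 at 11.94, above the others at 11.70 to 11.73. The rest were in groups at day 0 or on day 1: Sdha at 12.27 in MRL day 0 noninfarct replicate 4, Uqcrq at 11.97 and 12.18 in MRL day 0 infarct and noninfarct replicate 4, and, in MRL day 1 noninfarct tissue, Cox8b minus Cox8a at 3.72 in replicate 3 and Atp5g1 minus Atp5g2 at 1.62 in replicate 4.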

How the results depend on the processing

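In infarct tissue on day 5 the number of members called stayed within 1.5 times its value under every alternative run, and leaving out 1 replicate gave 72 to 78 calls in C57 and 76 to 80 in MRL. The other counts moved with the spread of single arrays, and the cause was not tested. The order in each list below is C57, then MRL.

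Without the pair of arrays that stood apart, calls on day 1 were 13 and 34 in infarct tissue (39 and 48 without C57 day 5 infarct replicate 1 as well, an alternative chosen after seeing the data) and 2 and 1 in noninfarct tissue. On day 5 they were 6 and 63 in noninfarct tissue. From day 1 to day 5 MRL had 72, and 78 in each strain with the added array left out. Between regions they were 10 and 26 on day 1 and 79 in C57 on day 5. With the added array left out as well, day 1 gave 25 and 44 between regions, against 10.4% and 12.5% of all genes lower. Between strains at day 0 there was 1 call in noninfarct tissue. With all 46 arrays in 1 fit calls were 11 and 29 on day 1 in infarct tissue, 3 and 2 on day 5 in noninfarct tissue, and 57 from day 1 to day 5 in MRL. Without a filter they were 13 and 7 on day 5 in noninfarct tissue, 0 and 3 between regions on day 1 and 5 in C57 on day 5. With the median over a gene's probe sets there was 1 call between strains in each region at day 0 and 2 between regions in C57 on day 1. The share of all genes called is not given for all 46 arrays, no filter or the median over probe sets. The same holds for leaving out 1 replicate and for the replicate block. Those counts show how calls depend on the processing and are no result about the members.

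Leaving out 1 replicate gave 1 to 5 and 3 to 10 calls on day 1 in infarct tissue, 1 to 77 and 0 to 10 on day 5 in noninfarct tissue, 10 to 72 and 8 to 72 from day 1 to day 5, 0 to 4 and 0 to 6 between regions on day 1, and 0 to 78 and 1 to 80 on day 5. With the replicate number as a block calls between regions were 3 and 9 on day 1 and 60 in C57 on day 5. Of 23 same-numbered pairs 16 deviated together with a correlation over 0.1 (-0.46 to 0.77). The C57 day 1 pairs had 0.10, -0.46, 0.15 and -0.27. No pairs with different numbers were set beside them, so this does not show whether a shared number is a shared heart. The block may therefore join pieces of different hearts. The block moved no other count of calls by more than 1.5 times.

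Quantile normalization moved the median of all genes from 0.03 to -0.11 in C57 infarct tissue and from -0.03 to -0.13 in MRL noninfarct tissue on day 5.

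In C57 alone, where 3 arrays stand against 4, 35 arrangements allow no p below 0.029 before adjustment over 20 tests, so that missing the threshold there says nothing of stability. The pairs that passed over both strains kept their direction (exact permutation tests, adjusted p of 0.19 to 0.31): for Cox6a2 minus Cox6a1 -0.43 and -2.6 in infarct tissue on days 1 and 5 and -0.20 and -1.21 in noninfarct tissue, for Cox7a1 minus Cox7a2 -0.33 and -1.66 in infarct tissue and -0.78 in noninfarct tissue on day 5, for Cox8b minus Cox8a -2.49 and -1.27 on day 5, for Atp5g1 minus Atp5g2 -0.78 in infarct tissue on day 5, and for Atp5g1 minus Atp5g3 -0.27 and -0.97 in infarct tissue and -0.33 in noninfarct tissue on day 5. Pairs near 0 changed sign: Cox8b minus Cox8a in noninfarct tissue on day 1 (0.13 in C57 alone, and -0.14 to 0.0028 leaving out 1 replicate), and Atp5g1 minus Atp5g2 on day 1 in infarct tissue (0.014 in MRL alone, and -0.070 to 0.025), on day 1 in noninfarct tissue (-0.12 to 0.018) and on day 5 in noninfarct tissue (0.027 without C57 replicate 3, and -0.13 to 0.027). In MRL alone Atp5g1 minus Atp5g2 missed the threshold in infarct tissue on day 5 at -0.68, whereas Cox7a1 minus Cox7a2 in noninfarct tissue (-0.26) and Cox8b minus Cox8a in infarct tissue (-0.75) passed on day 1. Quantile normalization brought Cox7a1 minus Cox7a2 past it in noninfarct tissue on day 1 (-0.20, and -0.24 to -0.14 leaving out 1 replicate). Leaving out 1 replicate gave -0.59 to -0.30 for Cox8b minus Cox8a on day 1 in infarct tissue and -1.24 to -0.73 on day 5 in noninfarct tissue. On day 5 in noninfarct tissue 1 of these 15 settings missed the threshold (exact permutation test, adjusted p = 0.05).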

Other observations

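Genes beside the respiratory chain were counted outside the infarct too, with all arrays included. Of 12 citric acid cycle genes 8 fell in C57 and 3 in MRL in noninfarct tissue on day 5, with medians of -0.71 and -0.56, and of 10 regulators of mitochondrial genes 5 fell in each strain, with medians of -0.72 and -0.69. Of 22 assembly factors outside the rule 8 fell in C57 and 5 in MRL, with medians of -0.40 and -0.23. Over all genes 9.85% fell in C57 and 8.39% in MRL. The C57 array medians of the citric acid cycle genes were -0.10, -0.39, -1.80 and -0.62, lowest in replicate 3. Counts of these lists without that array are not given. On day 1 in infarct tissue 1 citric acid cycle gene fell in C57 and none in MRL, with medians of -0.56 and -0.73, and 1 and 2 regulators fell, with medians of -0.78 and -0.92. Over all genes 7.07% fell in C57 and 12.4% in MRL. Cardiomyocyte markers had medians of -0.31 and -0.19 there, with 1 called in C57.

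Of 42 genes with several passing probe sets 41 had probe sets that changed in 1 direction in each strain on day 5. The exceptions were Cox8a in C57 and Uqcr10 in MRL.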
